A study of Mus musculus with 23 samples.

Results

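Differences between diets in kidney tubules with a targeted mineralocorticoid receptor gene, Nr3c2, were measured by comparing 6 knockout libraries on a low-potassium diet (KO-LK) with 6 knockout libraries on a normal-potassium diet (KO-NK), 12 of the 23 RNA-seq libraries in the series. The 12 libraries were chosen by their labels alone, and every gene was examined. RNA came from connecting tubule and collecting duct dissected from mouse kidney. All mice, controls included, were labelled Pax8-rtTA, TRE-LC-1, MRflox/flox: doxycycline switches on Cre in cells in which the Pax8 promoter is active, which in the kidney is the tubule along its whole length, and Cre then removes a floxed part of Nr3c2. To induce the knockout, both groups had water with 5% sucrose and 2 mg/ml doxycycline over 2 weeks, then 2 weeks of washout with a rescue diet, and finally ate the normal or the low-potassium diet for 4 days. Doxycycline and the rescue diet were therefore common to both. Controls of the same genotype, which drank 5% sucrose without doxycycline, ate a normal-potassium diet (CT-NK, 5 libraries) or a high-potassium diet (CT-HK, 6 libraries) for 4 days. The labels number the replicates without saying that each came from its own mouse, so the tests measure the spread between these libraries, and they give no age.

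As background, principal cells and connecting tubule cells take up sodium through the epithelial sodium channel and secrete potassium through channels on the same face of the cell. Potassium in the blood stimulates aldosterone release. Aldosterone activates the mineralocorticoid receptor, the product of Nr3c2, whose best known target kinase, Sgk1, keeps the sodium channel at the cell surface by restraining the ubiquitin ligase Nedd4l. A low-potassium diet lowers aldosterone and potassium secretion, and knockout of the receptor in the tubule causes salt loss and potassium retention. Within the knockout both groups had the same induction protocol while potassium intake differed. The extent of receptor loss in each library was not tested.

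A promoter of Sgk1 is shown because it holds a DNA element known to bind this receptor family. Steroid receptors bind inverted repeats of the motif AGAACA, which reads TGTTCT on the opposite strand. One of the 6 RefSeq promoter windows of Sgk1 (GRCm38.p6; 250 bases before to 50 after an annotated start, 5′ to 3′) holds 3 copies, in capitals:
Sgk1, chr10:21993640-21993939, plus strand: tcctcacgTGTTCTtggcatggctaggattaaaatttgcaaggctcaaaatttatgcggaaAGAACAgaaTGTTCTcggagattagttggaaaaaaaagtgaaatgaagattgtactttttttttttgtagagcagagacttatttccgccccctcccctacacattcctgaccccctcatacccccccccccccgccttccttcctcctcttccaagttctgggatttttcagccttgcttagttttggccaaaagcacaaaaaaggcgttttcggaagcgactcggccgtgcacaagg
The pair with its first base 189 bases before this start forms the complete inverted repeat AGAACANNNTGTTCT at bases 21993701 to 21993715 of chromosome 10. That repeat occurs in 3 of 32851 RefSeq promoter windows of the same length, or 0.00913%, while AGAACA or TGTTCT alone occurs in 19.0% of them. A match describes letters and does not show that a receptor was bound.

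The 12 knockout libraries held 16158408 to 29947956 estimated counts, and no pair of them had identical values. Nr3c2 was examined before other genes. Its level was 47.7 to 71.5 CPM (median 58.4) in KO-NK and 34.1 to 74.1 CPM (median 52.3) in KO-LK, where CPM is the count scaled to a common library size after TMM normalization. The groups overlapped, with a log2 fold change, here always KO-LK minus KO-NK, of -0.12 (SE 0.21) and an edgeR adjusted p of 0.933. Its control mean was 108 CPM in CT-NK and 108 CPM in CT-HK, and transcripts counted for the gene were present in all 12 knockout libraries. Defining genes of the dissected segments were abundant in both: the water channel gene Aqp2 averaged 2204 ± 1180 CPM (SD, n = 6) in KO-NK and 1959 ± 537 in KO-LK, and the connecting tubule calcium buffer gene Calb1 1513 ± 666 and 1070 ± 380.2. Knockout libraries that stand apart are KO-NK replicate 3 and KO-LK replicate 4. KO-NK replicate 3 has the most counts on olfactory and vomeronasal receptor genes (6827 CPM) and podocyte transcripts, and KO-LK replicate 4 is high in injury genes. Olfactory and vomeronasal receptor counts were not confined to 1 library: before TMM scaling 3 KO-LK and 2 KO-NK libraries exceeded 2500 CPM. For several results resting on KO-NK replicate 3 or KO-LK replicate 4, values are also given without it.

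No gene passed the threshold for a difference between low and normal potassium in the fit of all genes. Of 25829 genes tested with edgeR's quasi-likelihood test, 0 (0%) had a Benjamini-Hochberg adjusted p under 0.05. The smallest adjusted p was 0.191, shared by 7 genes. At an unadjusted p under 0.05 stood 732 genes (2.83%), 359 with a higher level on low potassium (1.39%) and 373 with a lower one (1.44%). DESeq2 called 23 of 21735 genes (0.106%), of which 4 were sparse predicted genes with log2 values beyond 20. By direction DESeq2 called 12 higher (0.0552%) and 11 lower (0.0506%), and without the sparse genes 9 higher and 10 lower. These 19 had the same sign in edgeR, with unadjusted p-values up to 0.00047, and in 13 of them the groups did not overlap. Both methods read the same counts, so these values describe the calls and are not support for them. With a stricter filter edgeR called 10 of 12421 genes (0.0805%), 4 higher (0.0322%) and 6 lower (0.0483%): Aoc1, Mmd2, Ddit3, Nr1d1, Pdk4, Spock3, Grb7, Vegfb, Ctsc and Spns2, the last 4 named because they were called. With sample weights limma called 8 of 25829 (0.031%), 4 in each direction (0.0155%): Aoc1, Spink12, Sftpd, Egfem1, Ddit3, Pdk4, Nabp1 and Spock3. Over all tested genes, groups did not overlap in 71 (0.275%): 28 (0.108%) lay entirely higher on low potassium and 43 (0.166%) entirely lower. The median log2 fold change was -0.13 over all tested genes and 0.03 over the 11431 genes averaging at least 5 CPM, so values near -0.1 do not stand out among low genes.

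The genes of smallest p with lower levels on low potassium had varied roles and included Ddit3, Nr1d1, Pdk4, Pfkfb3 and Sgk1. The 12 described were taken by rank of p among genes that differed by 1 or more on the log2 scale and averaged 5 CPM or more in the higher group. DESeq2 called 8 of these 12, none of which passed in edgeR, and in 8 of the 12 every KO-LK library lay below every KO-NK library. Since p chose these genes, those counts describe the selection and are not support for it.

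Ddit3 (ENSMUSG00000025408, chromosome 10, 127290774 to 127296288, plus strand) encodes CHOP, a transcription factor of the integrated stress response. Its level was 96.8 to 183 CPM (median 128) in KO-NK and 26.2 to 82.3 CPM (median 47.9) in KO-LK, and all 6 low-potassium libraries lay below all 6 normal-potassium libraries. The log2 fold change was -1.45 (SE 0.26), a mean 2.73-fold higher on normal potassium, with an adjusted p of 0.191 in edgeR and 0.000304 in DESeq2. Controls held less than KO-NK on either diet, 41.8 ± 16.4 CPM (SD, n = 5) in CT-NK and 31.2 ± 7.62 (SD, n = 6) in CT-HK.

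Nr1d1 (ENSMUSG00000020889, chromosome 11, 98767932 to 98775333, minus strand) encodes REV-ERBα, a repressor of the circadian clock. Nr1d1 stood at 106 to 195 CPM (median 135) in KO-NK against 45.4 to 93.4 CPM (median 58.6) in KO-LK, again without overlap. The log2 fold change was -1.12 (SE 0.22), with adjusted p-values of 0.191 in edgeR and 0.00153 in DESeq2. Exons of Thra on the opposite strand share 8.55% of the exonic bases of Nr1d1 in the GENCODE annotation. The labels do not describe strand-specific counting, so reads in that stretch cannot be assigned by strand.

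Pdk4 (ENSMUSG00000019577, chromosome 6, 5483351 to 5496309, minus strand) encodes a kinase that inactivates pyruvate dehydrogenase and is raised by fasting and by glucocorticoids. Pdk4 spanned 72.2 to 232 CPM (median 124) in KO-NK and 31.1 to 57.4 CPM (median 51.0) in KO-LK. The lowest normal-potassium library exceeded the highest low-potassium library, and the log2 fold change was -1.52 (SE 0.30) with adjusted p-values of 0.191 in edgeR and 0.00153 in DESeq2. Both knockout means exceeded those of controls, which were 14.2 CPM in CT-NK and 13.9 in CT-HK. Pfkfb3, whose enzyme makes the glycolytic activator fructose 2,6-bisphosphate, lay at 136 to 216 CPM (median 183) in KO-NK and 42.5 to 117 CPM (median 73.7) in KO-LK. Those groups did not overlap either, and the log2 fold change was -1.19 (SE 0.26), edgeR adjusted p 0.258.

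Sgk1 (ENSMUSG00000019970, chromosome 10, 21882184 to 21999903, plus strand), whose promoter window is printed above, encodes the kinase through which aldosterone sustains the epithelial sodium channel. Its 6 KO-NK libraries, from replicate 1 to 6, held 130.0, 86.9, 45.99, 193, 43.95 and 272 CPM. The KO-LK libraries held 30.3, 40.9, 44.1, 45.1, 62.7 and 53.4 CPM. Normal-potassium replicates 3 and 5 lay inside the low-potassium range and the other 4 above it, so the wide spread was on the normal-potassium side. The log2 fold change was -1.48 (SE 0.32), with an adjusted p of 0.244 in edgeR and 0.00469 in DESeq2. Control levels were higher than in any knockout library, 524 to 729 CPM (median 562) in CT-NK and 648 to 982 CPM (median 811) in CT-HK.

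The remaining 7 of the 12 lower genes had log2 fold changes from -2.41 to -1.05. Nabp1, whose product binds single-stranded DNA in repair, stood at 96.1 to 185 CPM (median 127) in KO-NK and 21.99 to 89.2 CPM (median 50.9) in KO-LK, log2 fold change -1.35 (SE 0.27). Its groups were separate, as were those of Spock3, which encodes an extracellular proteoglycan (30.5 against 13.6 CPM, -1.17, SE 0.24). Cbr2, a carbonyl reductase gene, had a mean of 6.97 CPM in KO-NK and 1.3 in KO-LK, -2.41 (SE 0.49), with no overlap at these low levels. Egr2, an immediate early transcription factor gene, was also separate between the groups, at 35.3 to 91.2 CPM (median 49.2) and 7.61 to 31.7 CPM (median 23.2), -1.34 (SE 0.44). Groups overlapped for Map3k14, the kinase of noncanonical NF-κB signalling (-1.05, SE 0.26), Cited4, a transcriptional coactivator gene (-1.66, SE 0.45), and the creatine kinase gene Ckb (-1.12, SE 0.35).

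**Figure D1:**
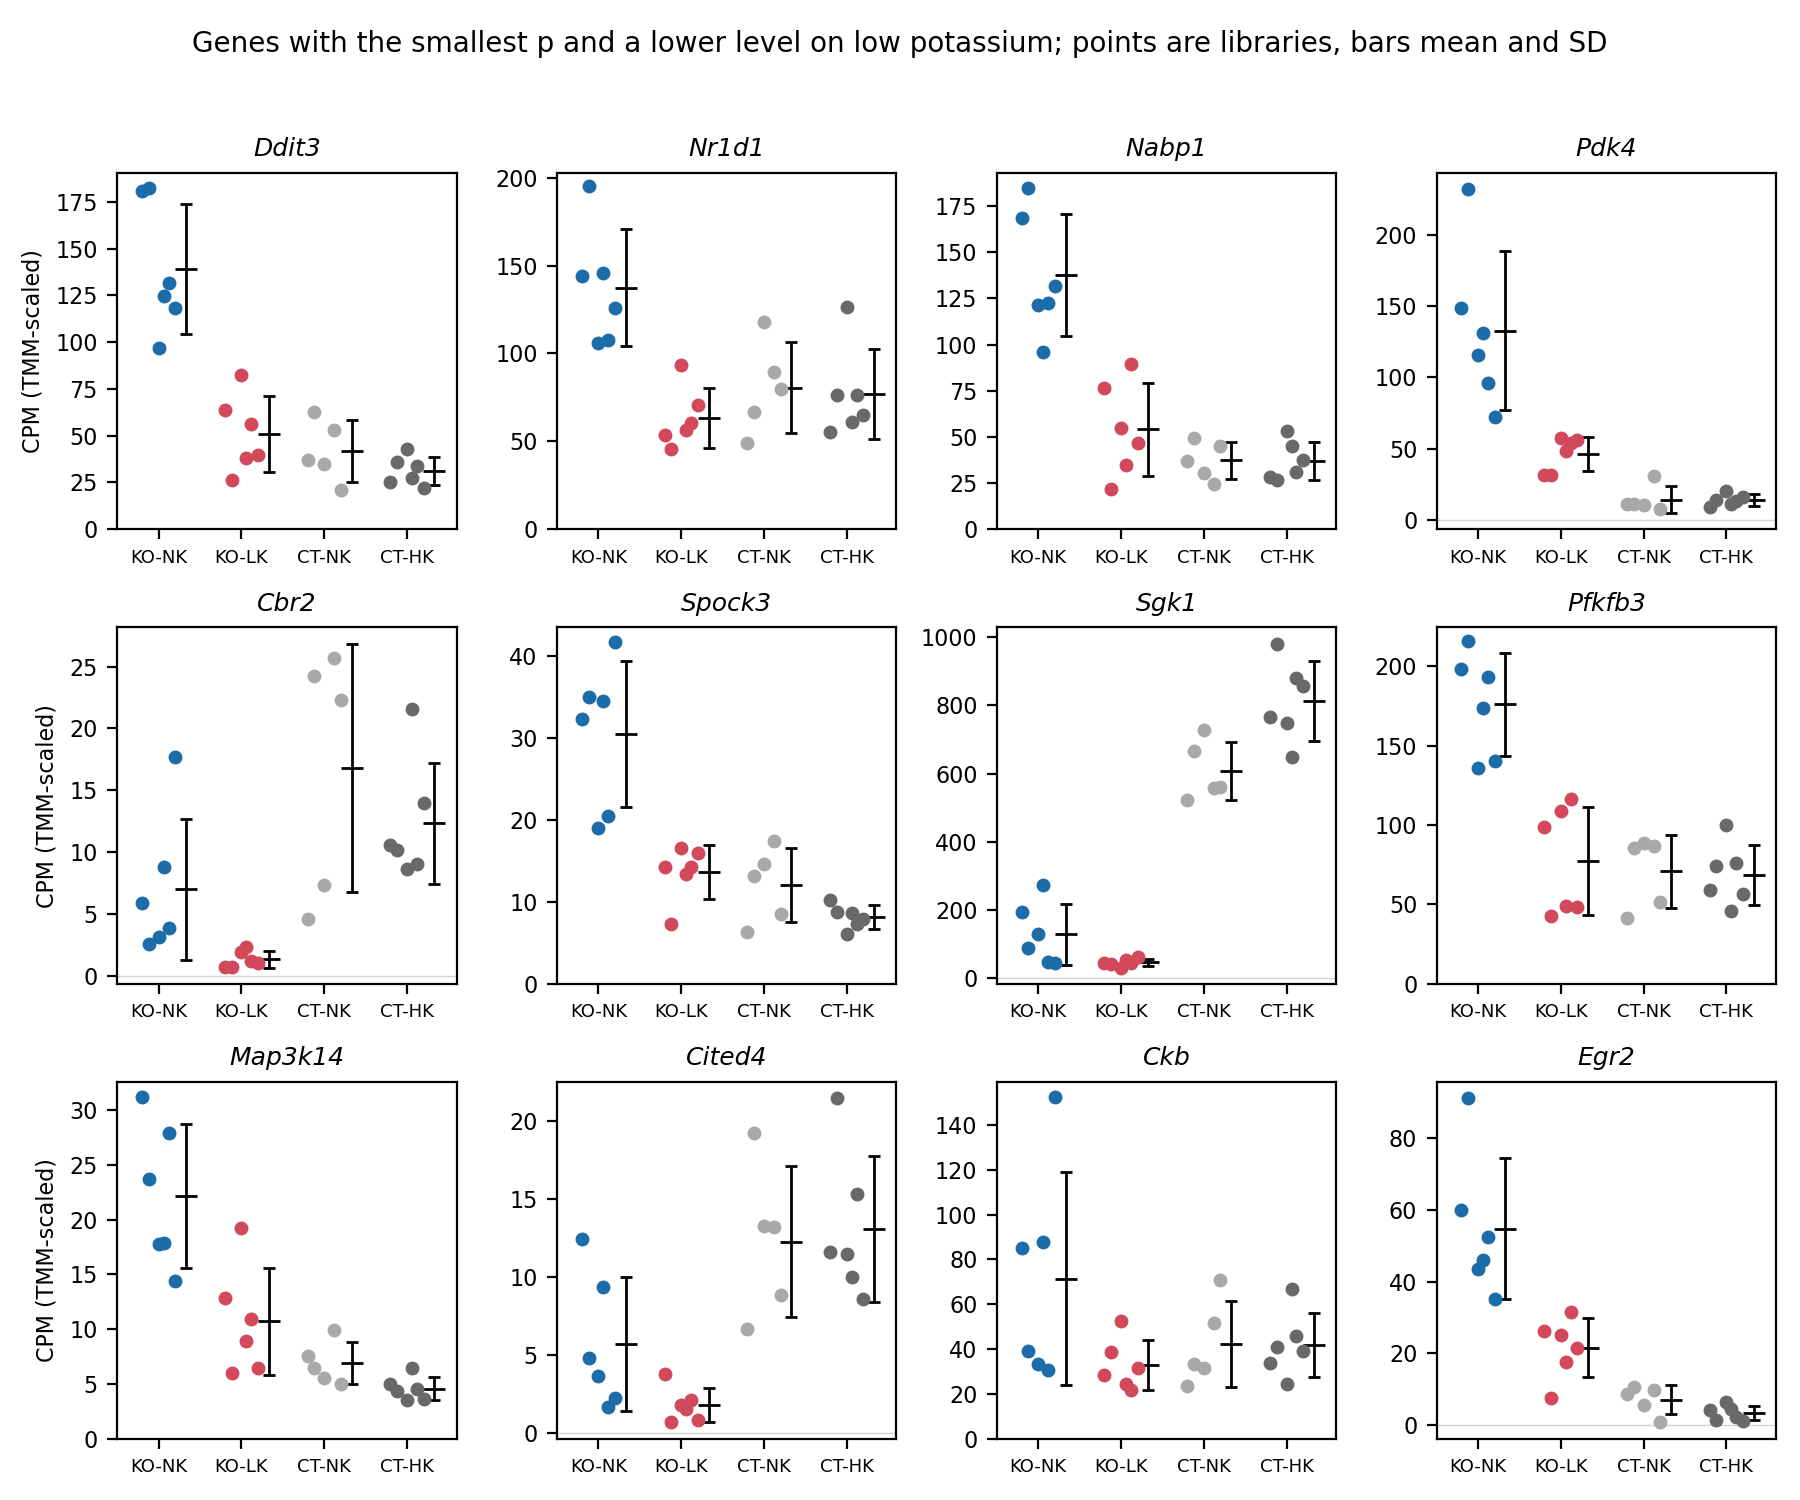
CPM per library (vertical axis, from 0 or just below) of the 12 lower genes in KO-NK, KO-LK, CT-NK and CT-HK; each point is a library and each bar a mean with its SD. Ddit3 in KO-NK starts at 96.8 CPM, above the KO-LK maximum of 82.3, while Sgk1 in both knockout groups lies under the control libraries.

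Among genes with higher levels on low potassium, those of smallest p included an amine oxidase, secreted proteins and cell division genes. In 3 of the 12 described every KO-LK library lay above every KO-NK library, and DESeq2 called 5. As for the lower genes, p chose the 12, so those counts describe the selection and are not support for it. Aoc1 (ENSMUSG00000029811, chromosome 6, 48872896 to 48909188, plus strand) encodes diamine oxidase, which breaks down histamine and putrescine. Aoc1 spanned 2.59 to 7.91 CPM (median 5.52) in KO-NK and 9.93 to 29.9 CPM (median 12.1) in KO-LK, with no overlap and the highest value in KO-LK replicate 4. The log2 fold change was 1.47 (SE 0.30), a mean 2.76-fold higher on low potassium, with an adjusted p of 0.191 in edgeR and 0.00153 in DESeq2. Without KO-LK replicate 4 it was 1.21, edgeR adjusted p 0.457.

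Spink12 (ENSMUSG00000061144, chromosome 18, 44104407 to 44108543, plus strand) belongs to a family of Kazal-type serine protease inhibitors. Spink12 was even among the low-potassium libraries at 5.72 to 7.37 CPM (median 6.57), against 0.787 to 3.05 CPM (median 1.54) in KO-NK. All 6 KO-LK libraries exceeded all KO-NK libraries, and the log2 fold change was 1.82 (SE 0.38), adjusted p 0.202 in edgeR and 0.00108 in DESeq2. On the log2(TPM + 1) scale limma called it as the single gene, at 1.56 and an adjusted p of 0.00164. Vsig1, which encodes an immunoglobulin-domain membrane protein, was separate too, at 1.96 to 3.58 CPM (median 2.76) and 4.25 to 10.03 CPM (median 6.47), 1.30 (SE 0.30).

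Overlapping groups were found for the other 9 higher genes. Dcn, which encodes the matrix proteoglycan decorin of fibroblasts, had 2.86 to 9.34 CPM (median 4.38) in KO-NK and 6.81 to 26.5 CPM (median 14.1) in KO-LK, 1.42 (SE 0.30). Dcn gave 1.23 without KO-LK replicate 4. The fibroblast, pericyte and smooth muscle list had 1 of 15 tested members, Dcn itself, at an unadjusted p under 0.05. Egfem1 averaged 8.16 and 18.4 CPM (1.17, SE 0.28), and Klhl13, an adaptor of a cullin ubiquitin ligase, 3.51 and 7.29 CPM (1.05, SE 0.27). The cell division genes Cdk1, Cdc20, Cdca3 and Ccna2 and the acute phase and injury genes Cp and Clu made up the rest and are described with their groups. Just outside the fold minimum, and chosen after their values were seen, stood Chic1 (19.8 against 37.4 CPM, 0.91, SE 0.18, separate groups) and Mmd2 (22.4 against 44.8 CPM, 1.00, SE 0.21); DESeq2 called both.

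**Figure D2:**
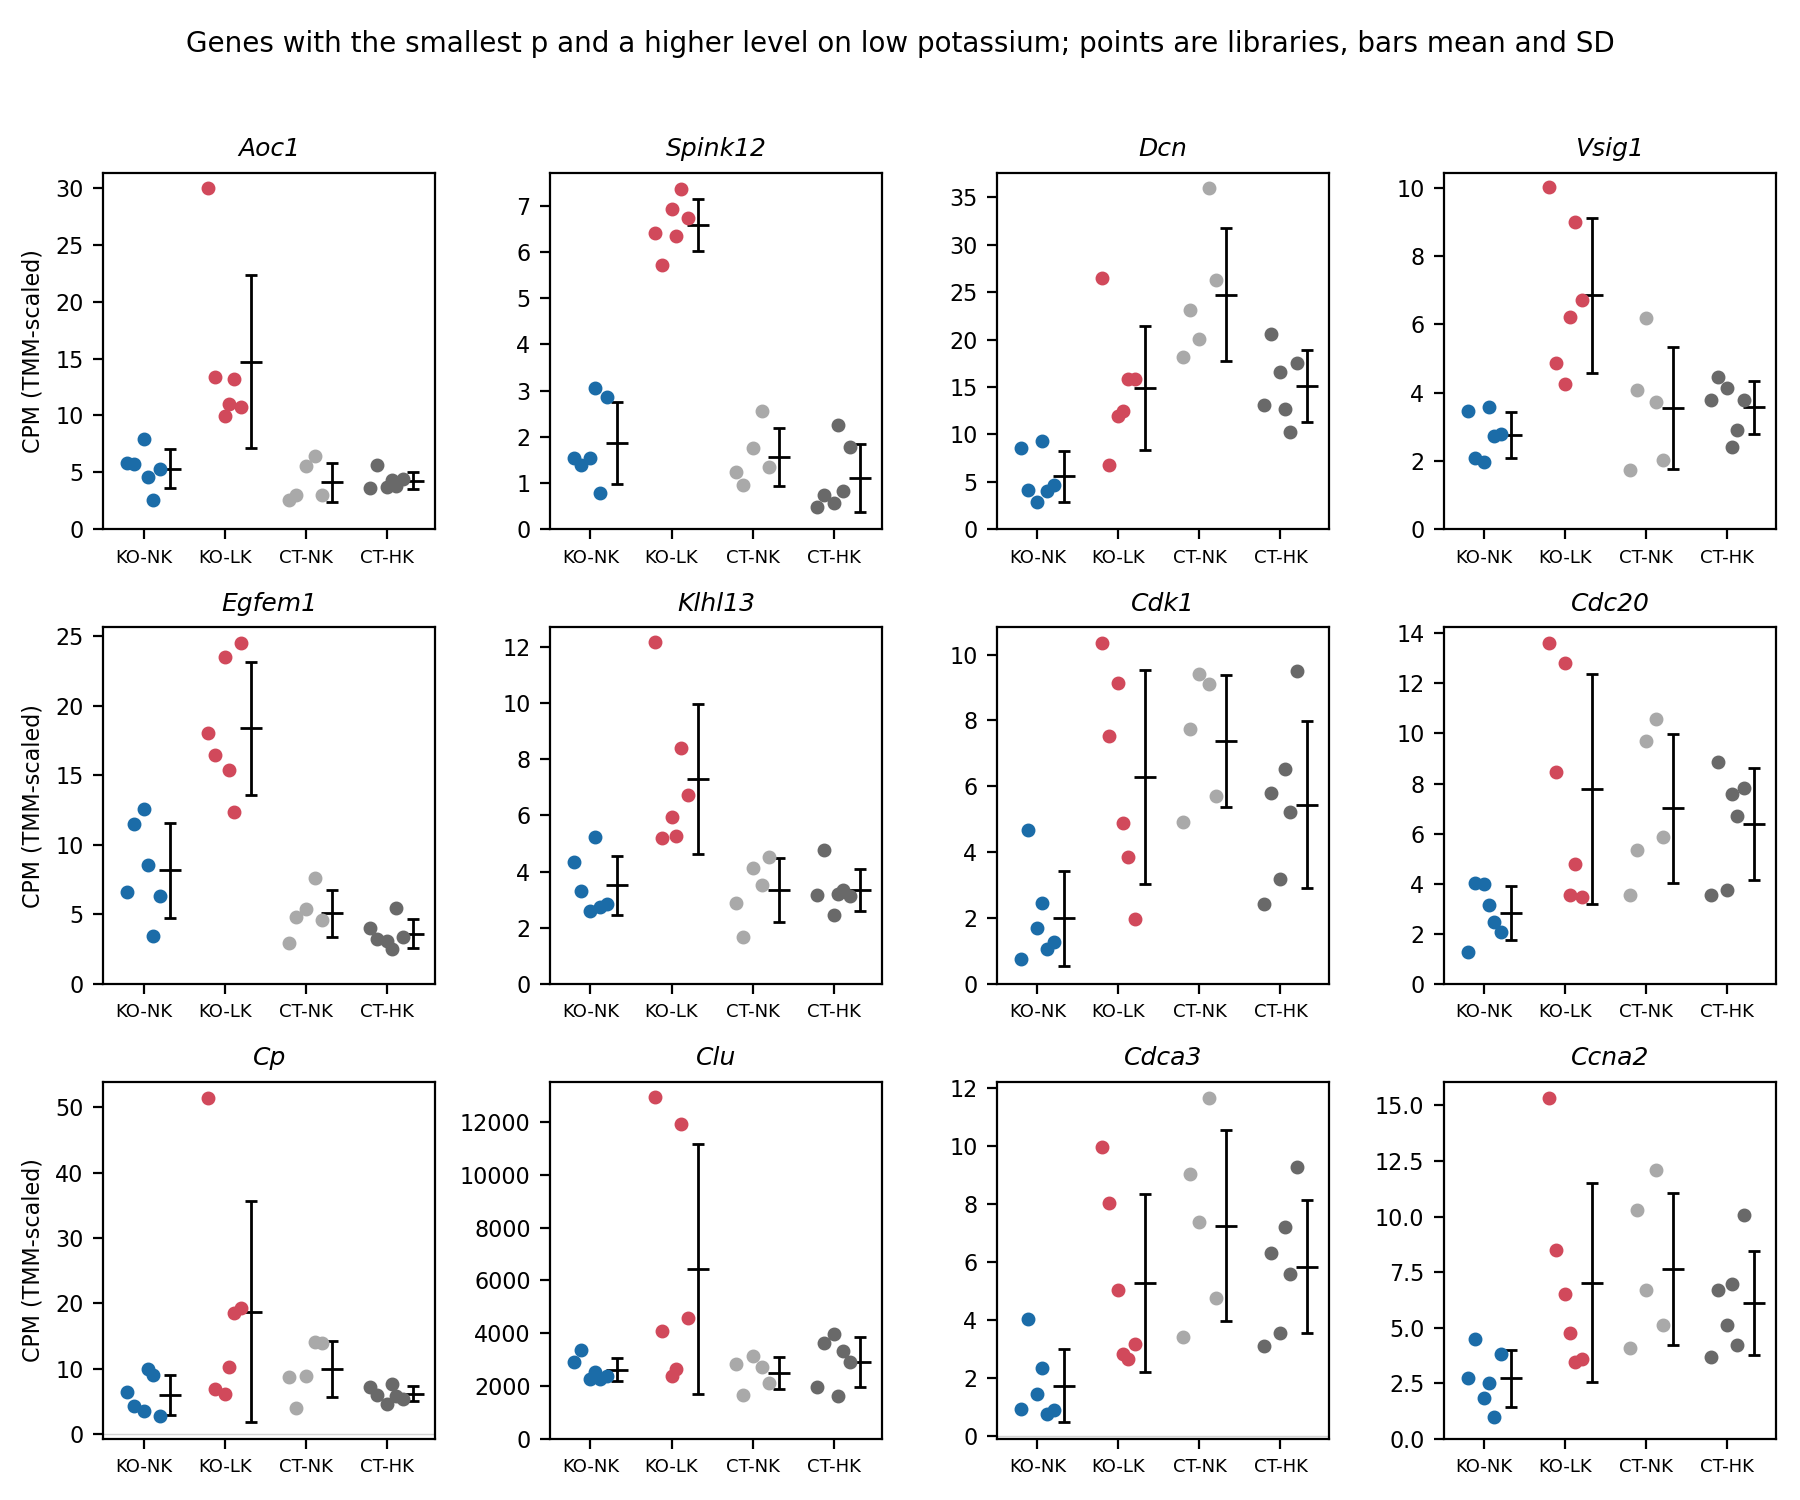
CPM per library of the 12 higher genes in the same layout of 4 groups, points for libraries and bars for mean and SD. Spink12 in KO-LK clusters between 5.72 and 7.37 CPM above all KO-NK points, whereas for Cp and Clu 1 or 2 KO-LK libraries lie far above the rest.

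Controls ate different diets, normal and high potassium, and no library is shared between the control and the knockout comparison. In controls, normal minus high potassium gave 0 calls in edgeR and 927 genes (3.59%) at an unadjusted p under 0.05. Of the 732 knockout genes at that level, 42.5% had the same sign of less minus more potassium in controls, against 39.0% of all tested genes. Sgk1 had the same sign in both, -0.42 (SE 0.33) in controls. Pdk4 and Nabp1 were near 0 there, at 0.03 (SE 0.32) and 0.02 (SE 0.28). On low potassium the knockout mean was nearer than on normal potassium to the CT-NK mean for 9 of the 12 lower genes and 5 of the 12 higher genes. Those genes were chosen by p from the same knockout libraries, so these counts describe the selection. The share over all tested genes was not computed, and a return toward control levels was not tested.

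The difference of the diet effects, knockout minus control, was tested in the same fit. edgeR called 0 genes (0%), with 974 (3.77%) at an unadjusted p under 0.05, and DESeq2 called 17 of 28735 (0.0592%). By rank of p, Sertad1, a cell cycle and transcription coregulator gene, came first with a log2 difference of -1.81 (SE 0.35). Spock3 (-1.73, SE 0.35) and Ddit3 (-1.87, SE 0.38) followed. Sertad1 had 1.02 (SE 0.25) in controls and -0.78 (SE 0.24) in the knockout. Spock3 had 0.56 (SE 0.25) and -1.165 (SE 0.24), and Ddit3 0.42 (SE 0.27) and -1.45 (SE 0.26). The orphan nuclear receptor gene Nr4a3 had -4.16 (SE 0.88), with 3.03 (SE 0.66) in controls and -1.12 (SE 0.59) in the knockout. Its control levels were low, at 0.248 to 1.91 CPM in CT-HK. In CT-NK replicates 3 and 4 held 18.3 and 12.1 CPM and the others at most 2.61 CPM. Klf10, a growth factor induced repressor gene, differed by -1.56 (SE 0.34), the chaperone gene Dnajb1 by -1.76 (SE 0.38) and Map3k14 by -1.64 (SE 0.38). In controls Klf10 had 0.655 (SE 0.24), Dnajb1 0.95 (SE 0.27) and Map3k14 0.59 (SE 0.28). In the knockout they had -0.91 (SE 0.23), -0.81 (SE 0.26) and -1.05 (SE 0.26). Among the genes of this paragraph the edgeR adjusted p for the difference started at 0.386. The calls depended on single control libraries. Without CT-HK replicate 6 edgeR called 214 genes, 7 with a positive and 207 with a negative difference. Without CT-NK replicate 5 it called 5. Proximal tubule markers summed to 45410 CPM in CT-HK replicate 6 and to 405 to 1226 CPM in the other CT-HK libraries. They summed to 25720 CPM in CT-NK replicate 5 and to 782.5 to 11710 CPM in the other CT-NK libraries. The part of those transcripts in the change of calls was not tested.

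**Figure D3:**
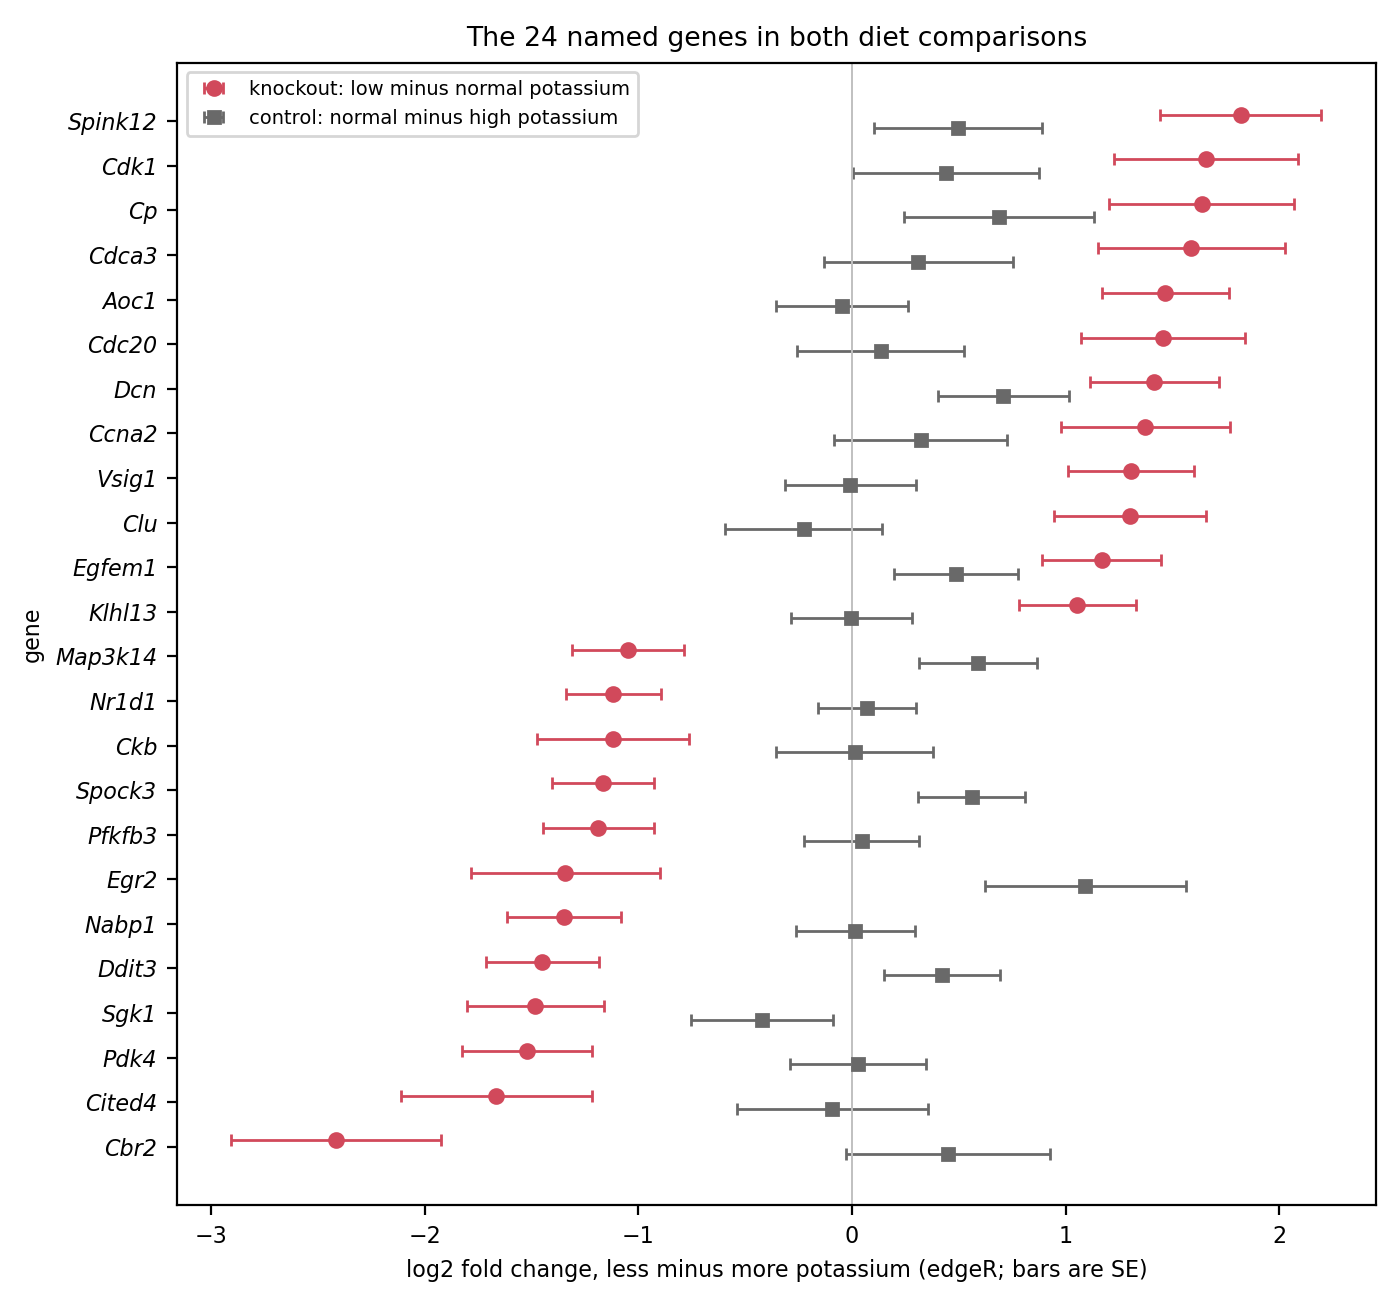
Log2 fold change (horizontal axis, with SE) of the 12 lower and 12 higher genes for low minus normal potassium in the knockout (circles) and normal minus high potassium in controls (squares). Sgk1 lies left of 0 in both, at -1.48 and -0.42, and Egr2 on opposite sides, at -1.34 and 1.09.

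Genes known to respond to corticosteroids were described next, beside the 1.39% of all genes with a higher and 1.44% with a lower level at an unadjusted p under 0.05. The same shares apply to the lists that follow, where no other setting is named. Of 28 tested targets 0 were higher and 6 lower, and no member passed the adjusted threshold. Their median log2 fold change was -0.13, against -0.13 over all tested genes and 0.03 over those averaging at least 5 CPM. With the stricter filter the median was -0.18 over 26 targets and -0.015 over all 12421 genes tested. Over the 28 alternative settings the lower count ran from 2 to 8 and the higher count from 0 to 2, and the lower count was 3 without KO-LK replicate 2 or KO-NK replicate 4. After Pdk4 and Sgk1, the smallest p belonged to Klf9, a transcription factor gene induced by glucocorticoids, at 52.2 to 78.5 CPM (median 68.01) in KO-NK and 35.97 to 62.9 CPM (median 45.1) in KO-LK (-0.49, SE 0.17). Usp2, whose deubiquitinase acts on the clock and on the sodium channel, stood at 96.5 to 151 CPM (median 115) and 55.8 to 136 CPM (median 88.2) (-0.45, SE 0.19). Both pairs of groups overlapped.

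For the epithelial sodium channel, the value of the α subunit gene was lower on low potassium and those of the β and γ subunits were close to 0. Scnn1a had 131 to 240.2 CPM (median 174) in KO-NK and 92.3 to 203 CPM (median 113) in KO-LK, a log2 fold change of -0.56 (SE 0.25) with an edgeR adjusted p of 0.928. One KO-LK library, replicate 4, reached the KO-NK range at 203 CPM. Scnn1b gave -0.04 (SE 0.22), 95% interval -0.50 to 0.42, and Scnn1g -0.13 (SE 0.20), interval -0.55 to 0.29, which leave room for differences of either sign. The ubiquitin ligase gene Nedd4l gave -0.14 (SE 0.17). Prr5l, which encodes a binding partner of the mTORC2 complex that phosphorylates SGK1, had 61.1 and 47.4 CPM (-0.37, SE 0.16). Across the 20 members of the channel and its regulators 4 were lower at an unadjusted p under 0.05 (Sgk1, Usp2, Prr5l and Scnn1a) and 0 higher, median -0.10; the lower count ran from 1 to 6 over the alternatives. It was 1 without KO-LK replicate 2 or KO-NK replicate 4, and 2 without KO-LK replicate 1, 3, 5 or 6 or KO-NK replicate 2, 5 or 6.

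Potassium channel genes gave no value at that level: 0 of 19 tested members in either direction, with a median of -0.15. Kcnj1, the gene of the ROMK channel through which potassium is secreted, had 597 to 1064 CPM (median 1004) in KO-NK and 705 to 1164 CPM (median 872) in KO-LK, and its log2 fold change of 0.00 (SE 0.22) had a 95% interval of -0.45 to 0.46. Kcnma1, the pore subunit gene of the flow-activated BK channel, was near the detection limit at 0.697 to 6.39 CPM (median 1.93) and 0.213 to 3.78 CPM (median 1.57). The basolateral channel genes Kcnj10 and Kcnj16 gave -0.04 (SE 0.18) and 0.02 (SE 0.17). All of these groups overlapped.

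No pump gene passed a threshold. The 11 sodium pump and FXYD genes ran from -0.88 to 0.47 with a median of 0.04, and the 3 proton-potassium pump genes from -0.91 to -0.09, none at an unadjusted p under 0.05. Atp12a, the colonic proton-potassium pump gene known to be induced by potassium depletion, spanned 21.8 to 49.1 CPM (median 35.3) in KO-NK and 16.4 to 59.9 CPM (median 28.96) in KO-LK, -0.10 (SE 0.38). In controls its normal minus high value was 1.89 (SE 0.42), at lower levels that averaged 5.4 CPM in CT-NK and 1.46 CPM in CT-HK. The sodium pump β subunit gene Atp1b1 gave -0.03 (SE 0.18), and Fxyd4, a pump regulator gene of the collecting duct, 0.02 (SE 0.29). Genes on the opposite strand share 13.9% of the exonic bases of Atp12a and 18.7% of those of Atp1b1. Hsd11b2, which encodes the enzyme that protects the receptor from glucocorticoids, and the glucocorticoid receptor gene Nr3c1 gave -0.01 (SE 0.23) and 0.08 (SE 0.20). Slc12a3, the thiazide-sensitive cotransporter gene of the neighbouring distal convoluted tubule, had 4.51 to 981 CPM (median 222) in KO-NK and 4.94 to 600.0 CPM (median 218) in KO-LK, so libraries of both groups differed widely in transcripts of that segment.

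Cell type genes of the collecting system had few members at an unadjusted p under 0.05. In bulk RNA, fewer cells of a type and less RNA per cell cannot be told apart, here or for any cell type gene. Slc26a4, which encodes pendrin, the chloride-bicarbonate exchanger of β intercalated cells, had 591 to 1267 CPM (median 1004) in KO-NK and 1227 to 1682 CPM (median 1429) in KO-LK, 0.55 (SE 0.22). Hmx2, a transcription factor gene on the same list, had 36.96 to 96.99 CPM (median 81.3) and 99.8 to 150.1 CPM (median 112), 0.57 (SE 0.22), and only Hmx2 of this pair had separate groups. These were the 2 higher of 11 tested β markers at an unadjusted p under 0.05, with 0 lower and a median of 0.03. Without KO-NK replicate 3 the count was 2 higher and 2 lower, Hmx2 gave 0.47 and Slc26a4 gave 0.475. Slc4a1, the basolateral anion exchanger gene of α intercalated cells, gave 217 and 108 CPM (-1.01, SE 0.44), the 1 lower of 12 α markers, 0 being higher, median -0.26.

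Principal cell markers had 1 of 20 lower and 0 higher, median -0.04, and Aqp2 gave -0.17 (SE 0.32). Connecting tubule markers had 1 higher and 1 lower of 10. Trpv5, the apical calcium channel gene, was 172 to 368 CPM (median 220.1) in KO-NK and 226 to 584 CPM (median 333) in KO-LK (0.61, SE 0.29), with Trpv6 at 0.49 (SE 0.28), Calb1 at -0.50 (SE 0.30) and the calbindin-D9k gene S100g at 0.36 (SE 0.32). The calcium genes therefore had values of both signs and overlapping groups. Gchfr, which encodes the feedback regulator of tetrahydrobiopterin synthesis, had 7.09 to 22.4 CPM (median 11.9) in KO-NK and 5.46 to 8.35 CPM (median 7.33) in KO-LK, -0.91 (SE 0.23), edgeR adjusted p 0.607. P2ry1, a receptor gene for extracellular nucleotides, gave -0.57 (SE 0.22); 23.1% of its exonic bases are shared with an antisense gene.

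Cell division genes had higher values on low potassium. Of 28 tested, 13 were higher at an unadjusted p under 0.05 and 0 lower. The median was 0.51, against -0.13 over all tested genes and 0.03 over those averaging at least 5 CPM. Of the log2 fold changes 27 of 28 lay above 0, against 36.6% of all tested genes. None passed the adjusted threshold. The higher count stayed between 10 and 16, with 0 lower, in each of the 28 alternative settings. It was 11 without KO-LK replicate 4 and 13 without KO-NK replicate 3. The median of the list ran from 0.27 to 0.79 over those settings. It was 0.27 over 22 members with the stricter filter and 0.30 with limma on log2(TPM + 1). Cdk1, the kinase that drives entry into mitosis, had 2 KO-LK libraries, replicates 3 and 5, within the KO-NK range: its values were 0.767 to 4.67 CPM (median 1.48) in KO-NK and 1.96 to 10.3 CPM (median 6.21) in KO-LK, 1.66 (SE 0.43). Cdc20, which activates the anaphase-promoting complex, had 1.26 to 4.02 CPM (median 2.81) and 3.49 to 13.6 CPM (median 6.61), 1.45 (SE 0.38). Top2a, the DNA topoisomerase of dividing cells, had 1.58 to 9.14 CPM (median 4.65) and 4.8 to 24.3 CPM (median 11.0), 1.28 (SE 0.37). Ccna2, the cyclin A2 gene, and Cdca3, another mitotic gene, gave 1.37 (SE 0.40) and 1.59 (SE 0.44). Without KO-LK replicate 4 the values were 1.585 for Cdk1, 1.34 for Cdc20, 1.09 for Top2a, 1.07 for Ccna2 and 1.42 for Cdca3. Of the exonic bases of Ccna2, 12.5% are shared with Exosc9 on the opposite strand.

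These levels were low, and the groups overlapped for all 5 genes. The summed level of the list was 504 ± 87.8 CPM (SD, n = 6) in KO-NK and 602 ± 66.9 in KO-LK. In controls it was 611 ± 111 CPM (SD, n = 5) in CT-NK and 637 ± 80.3 (SD, n = 6) in CT-HK. KO-NK thus had the lowest mean of the 4 groups, and KO-LK lay near the controls. Mean Cdk1 was 1.99 CPM in KO-NK, 6.29 in KO-LK, 7.38 in CT-NK and 5.44 in CT-HK. Knockout and control levels were not compared by a test. Macrophage and leukocyte markers also had mostly positive values. Of 14, 11 were above 0, where 36.6% of all tested genes were, and the median was 0.64. At an unadjusted p under 0.05, 2 were higher and 0 lower, beside 1.39% and 1.44% of all tested genes. The higher count ran from 0 to 7 over the alternatives. It was 7 without KO-NK replicate 6 and 5 without KO-NK replicate 4, where 3.27% and 3.01% of all tested genes were higher. It was 1 without KO-LK replicate 2, 4 or 6, and 0 without KO-NK replicate 1, 2 or 5 or KO-LK replicate 5. The summed level of these markers ran from 220 to 794 CPM in KO-NK and from 377 to 804 in KO-LK. The lysozyme gene Lyz2, whose near copy Lyz1 can share its reads, stood at 7.57 to 38.2 CPM (median 19.2) and 19.1 to 89.4 CPM (median 34.4) (1.06, SE 0.46), and the complement gene C1qb at 0.79 (SE 0.38). Lyz2 gave 0.77 and C1qb 0.85 without KO-LK replicate 4. The part of these markers in the cell division result was not tested.

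The promoters of Cdk1, Cdc20 and Top2a are shown because the 3 genes had higher values together and belong to a class whose promoters hold a known pair of elements: the cell cycle homology region, with the letters TTTGAA, which reads TTCAAA on the opposite strand, and the box named after its letters CCAAT, which likewise reads ATTGG. Both are in capitals in these RefSeq windows (GRCm38.p6, 250 bases before to 50 after the start, 5′ to 3′ along the gene):
Cdk1, chr10:69352863-69353162, minus strand: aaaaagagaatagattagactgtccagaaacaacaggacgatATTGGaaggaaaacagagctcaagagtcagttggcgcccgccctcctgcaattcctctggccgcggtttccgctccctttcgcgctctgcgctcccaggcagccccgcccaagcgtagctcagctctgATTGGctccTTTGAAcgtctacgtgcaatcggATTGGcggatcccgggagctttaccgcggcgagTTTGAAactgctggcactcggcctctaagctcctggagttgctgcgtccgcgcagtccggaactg
Cdc20, chr4:118437294-118437593, minus strand: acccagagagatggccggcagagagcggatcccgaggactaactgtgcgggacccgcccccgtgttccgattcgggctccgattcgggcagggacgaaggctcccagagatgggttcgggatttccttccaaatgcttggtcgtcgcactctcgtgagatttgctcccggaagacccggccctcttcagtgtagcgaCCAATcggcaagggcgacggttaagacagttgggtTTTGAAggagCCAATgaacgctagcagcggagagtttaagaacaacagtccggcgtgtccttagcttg
Top2a, chr11:99024140-99024439, minus strand: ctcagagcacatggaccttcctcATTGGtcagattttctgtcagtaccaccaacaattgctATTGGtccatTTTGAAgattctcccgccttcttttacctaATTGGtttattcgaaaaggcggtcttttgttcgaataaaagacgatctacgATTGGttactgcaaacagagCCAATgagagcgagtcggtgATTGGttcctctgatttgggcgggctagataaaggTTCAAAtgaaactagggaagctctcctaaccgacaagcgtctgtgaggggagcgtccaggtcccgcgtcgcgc
Counting both strands, TTTGAA occurred 2, 1 and 2 times and CCAAT 3, 2 and 6 times in these windows, with no overlapping matches. Of the 28 cell division genes 23 had windows, 24 in all, and 33.3% of those held TTTGAA, against 17.9% of all 32851 windows. CCAAT was held by 79.2% of them, against 37.4% of all windows. The steroid element AGAACA or TGTTCT was in 13.0% of the 23 windows of the 12 lower genes, all of them of Sgk1, and in 26.7% of the 15 windows of the higher genes, beside the 19.0% of all windows. These are descriptions of the windows with no test.

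**Figure D4:**
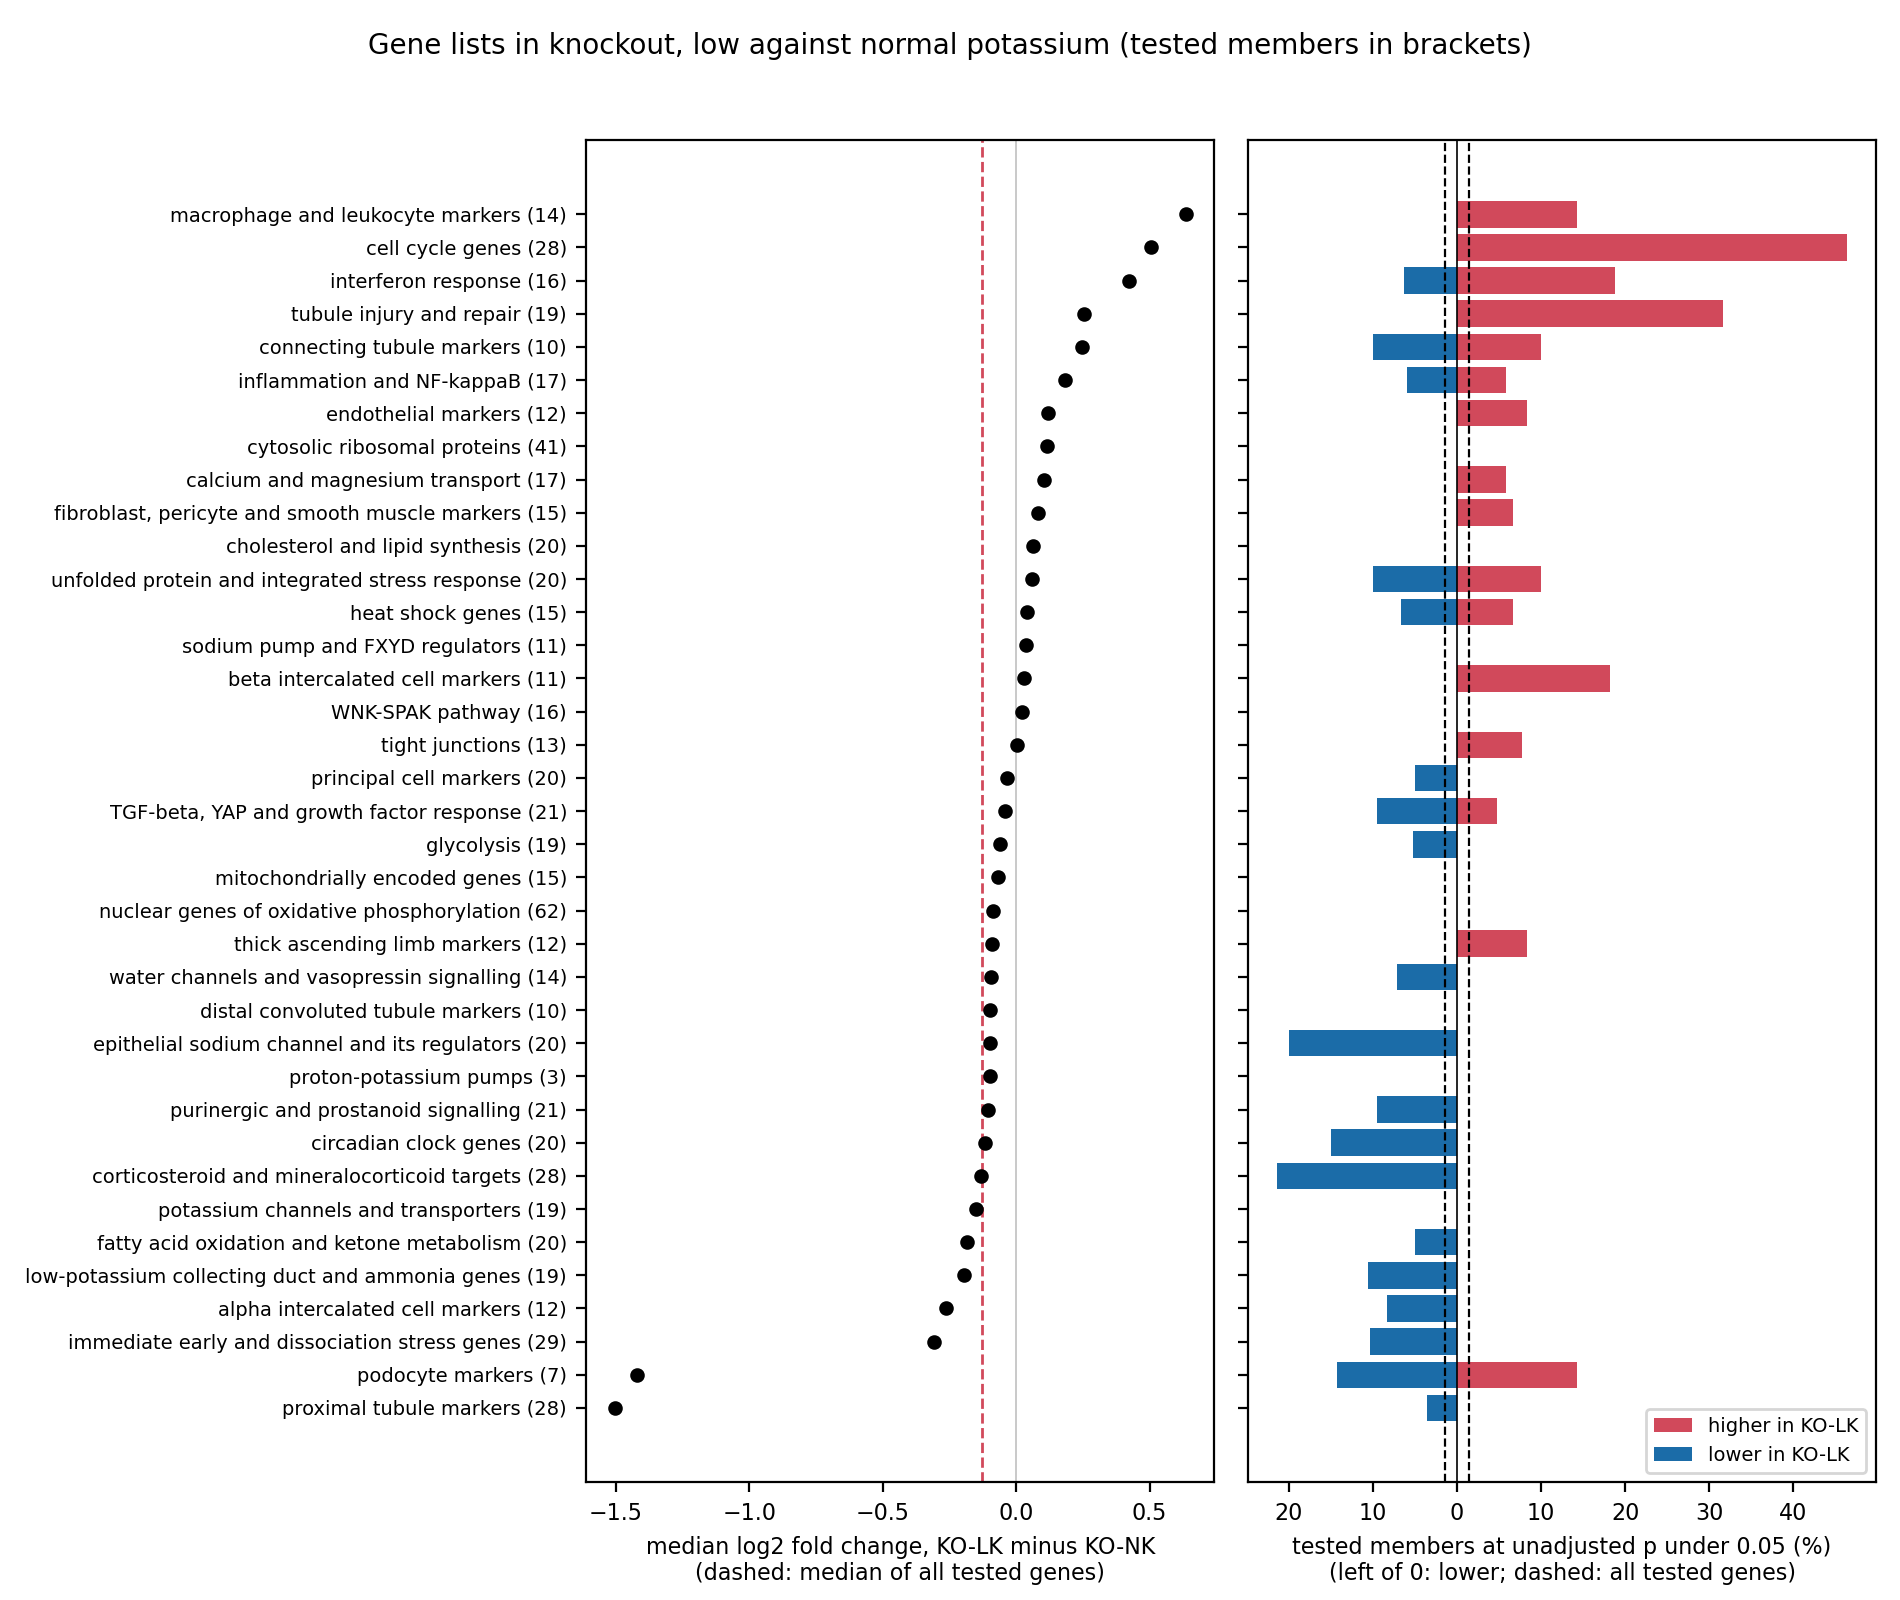
Left, median log2 fold change of the tested members of each of the 37 gene lists (horizontal axis, KO-LK minus KO-NK), with the median of all tested genes, -0.13, dashed; right, percent of members at an unadjusted p under 0.05, higher to the right and lower to the left, with the percents of all tested genes, 1.39% and 1.44%, dashed. In the plotted fit cell cycle genes reach furthest right with 13 of 28, and proximal tubule markers have the lowest median, -1.50.

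Tubule injury genes had higher values on low potassium that rested in part on KO-LK replicates 3 and 4. Of 19 tested injury and repair genes, 6 were higher at an unadjusted p under 0.05 and 0 lower, beside 1.39% and 1.44% of all tested genes. The median was 0.25, against -0.13 over all tested genes and 0.03 over those averaging at least 5 CPM. Without KO-LK replicate 4 the count of higher genes was 4, where 2.34% of all tested genes were higher. Clu, the gene of the secreted chaperone clusterin, ran from 2258 to 3357 CPM in KO-NK. In KO-LK its replicates 1 to 6 held 2386, 4089, 11950, 12960, 4574 and 2636 CPM, so replicates 3 and 4 stood apart. Its log2 fold change was 1.30 (SE 0.36), and 1.08 without replicate 4.

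Havcr1, the gene of the kidney injury molecule KIM-1, was high in 1 library only, at 30.8 CPM in KO-LK replicate 4 and at most 1.43 CPM in the other 11 knockout libraries. Its log2 fold change of 3.35 (SE 1.04) became 0.41 without that library. The complement gene C3 had 82.8 CPM there and 6.48 CPM or less elsewhere, 3.68 (SE 1.10) with it and 1.17 without. Cp, the ceruloplasmin gene, had 2.74 to 9.96 CPM (median 5.4) in KO-NK and 6.22 to 51.4 CPM (median 14.3) in KO-LK, 1.64 (SE 0.43), and 1.11 without replicate 4. Vcam1, an adhesion molecule gene of injured tubules, gave 1.32 (SE 0.40) and 0.89 without it. The lipocalin gene Lcn2 had 6.61 to 35.4 CPM (median 15.97) in KO-NK and 17.1, 16.2, 171, 107, 7.29 and 11.8 CPM in KO-LK replicates 1 to 6 (median 16.6). Replicates 3 and 4 were high and the medians close: the log2 fold change of 1.66 (SE 0.67) was 0.82 without replicate 3 and 1.47 without replicate 4. The inflammation and NF-κB list, which holds C3, had 1 of 17 members higher and 1 lower at an unadjusted p under 0.05, with a median of 0.18 and a range of -1.05 to 3.68. Beside 1.39% of all tested genes higher and 1.44% lower, 3 of 16 interferon response genes were higher and 1 lower, median 0.42. The counts were the same without KO-LK replicate 4. Without KO-NK replicate 2, 5 were higher, where 4.14% of all tested genes were. The 3 higher genes included Ifit1 (4.17 against 7.89 CPM, 0.92, SE 0.35), and Irf1 had the opposite sign (-0.88, SE 0.38).

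Immediate early and dissociation genes, which respond within minutes to stimulation and to handling of tissue, had lower values on low potassium. Of 29 tested, 3 were above 0, where 36.6% of all tested genes were. At an unadjusted p under 0.05, 3 were lower and 0 higher. The median was -0.31, against -0.13 over all tested genes and 0.03 over those averaging at least 5 CPM. The lower count ran from 1 to 9 over the alternatives. It was 9 with only the compared groups in the fit, where 2.75% of all tested genes were lower. It was 1 without KO-LK replicate 2, 5 or 6 or KO-NK replicate 1, 2, 3, 4 or 5. After Egr2, described above, Fosl2, an AP-1 subunit gene, had 13.99 to 35.3 CPM (median 30.3) in KO-NK and 6.7 to 23.4 CPM (median 15.2) in KO-LK (-0.85, SE 0.40). Klf6, a stress-induced transcription factor gene, gave -0.61 (SE 0.29) with 382 to 555 and 147 to 436 CPM. The unfolded protein and integrated stress response list had 2 of 20 members higher and 2 lower. Besides Ddit3, the phosphatase subunit gene Ppp1r15a was lower (-0.59, SE 0.26), while the endoplasmic reticulum chaperone gene Sdf2l1 (0.75, SE 0.21) and the asparagine synthetase gene Asns (0.47, SE 0.22) were higher. Heat shock genes had 1 of 15 each way: Dnajb1 at 136 to 198 CPM (median 170.5) and 68.3 to 120.1 CPM (median 102), separate groups, -0.81 (SE 0.26), and the small heat shock protein gene Hspb8 at 0.72 (SE 0.22).

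Clock genes had 3 of 20 lower and 0 higher, median -0.12: Nr1d1, Usp2 and Per1, a core repressor of the clock (35.2 against 23.9 CPM, -0.56, SE 0.26). The lower count ran from 1 to 5 and the median from -0.16 to 0.03 over the alternatives. It was 1 without KO-LK replicate 2 or 6 or KO-NK replicate 2, 4 or 5. The labels used here give no hour of dissection, and clock time was not tested. In metabolism, 62 nuclear genes of oxidative phosphorylation and 15 mitochondrially encoded genes had 0 members at an unadjusted p under 0.05, with medians of -0.09 and -0.07. The count for oxidative phosphorylation depended on the setting, with 0 higher in any. Without KO-NK replicate 3, 16 of 62 were lower on low potassium (median -0.17), where 1.65% of all tested genes were. The lower count was 16 with a covariate for olfactory and vomeronasal receptor counts (3.78% of all tested genes). It was 10 with the stricter filter (3.72%) and 21 with sample weights (4.23%). The median of the list ran from -0.23 to 0.10. Mitochondrially encoded genes took 10.9% ± 1.54 (SD, n = 6) of counts in KO-NK and 10.4% ± 2.06 in KO-LK. The 41 cytosolic ribosomal protein genes had 0 members at an unadjusted p under 0.05 as well. All 41 values were above 0, where 36.6% of all tested genes were. The median of the list was 0.11, against 0.03 over genes averaging at least 5 CPM, and ran from 0.03 to 0.25 over the alternatives.

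Transcripts of the proximal tubule, a segment other than those dissected, had lower values on low potassium. All 28 proximal tubule markers had values below 0, median -1.50, but only 1 of 28, Hao2, was at an unadjusted p under 0.05 (11.5 to 37.9 CPM (median 16.6) in KO-NK, 2.58 to 9.22 CPM (median 6.36) in KO-LK, separate groups, -1.76 (SE 0.73)). With only the compared groups in the fit, 21 of 28 were lower at that level, where 2.75% of all tested genes were, and the other alternatives gave 0 to 6. Their summed level ran from 1519 to 8051 CPM (median 2043) in KO-NK and from 604 to 2331 CPM (median 1069) in KO-LK. The groups overlapped. The sum was 2.37-fold higher on normal potassium, with an exact 2-sided permutation p of 0.0368 over 6 against 6 libraries (smallest possible 0.00216) and 0.147 after adjustment over 4 sums. Without the 2 knockout libraries richest in these transcripts, KO-NK replicates 5 and 6, a setting added after the data were seen, the median of the markers was -0.75 and 0 of 28 reached an unadjusted p under 0.05. Thick ascending limb markers (exact permutation p 0.861), olfactory and vomeronasal receptor genes (0.418) and the mitochondrial percent (0.641) had larger p-values in the same family.

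Podocyte markers, from the neighbouring glomerulus, stood apart in 1 library. Their summed level was 366 CPM in KO-NK replicate 3 and 41.8 to 71.6 CPM in the other 5 KO-NK libraries, against 58.0 to 105 CPM in KO-LK.

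**Figure D5:**
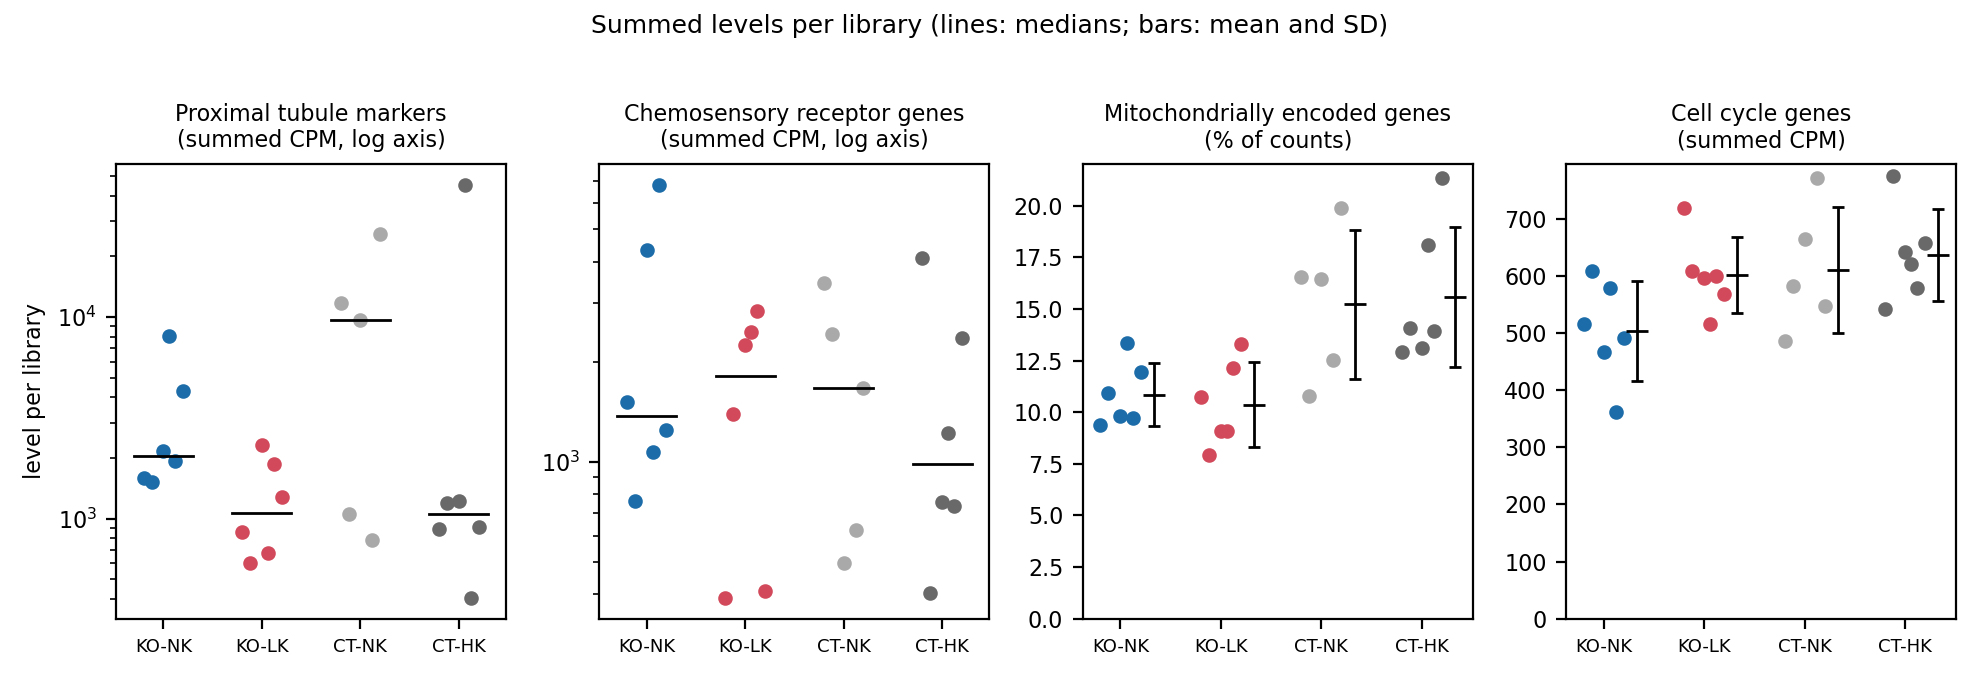
Levels per library in the 4 groups: summed proximal tubule markers and summed olfactory and vomeronasal receptor genes (CPM, log axes, lines at the medians), mitochondrially encoded genes (% of counts) and summed cell cycle genes (CPM), the last 2 with mean and SD. KO-NK proximal tubule sums have a median of 2043 CPM against 1069 in KO-LK, while the mitochondrial percent of the knockout groups overlaps throughout.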

How the data were processed

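RNA was made into libraries with SMART-Seq HT and Nextera XT, per the labels' protocols, and the submitters' processing notes list Salmon 0.14.10 and the build GRCm38.p6. The authors deposited expected counts per gene, estimated rather than whole (35.9% of values are not whole), and the deposited TPM values, a length-scaled share of transcripts; how transcripts were summed to genes is not given in the sources used here. All 54393 genes matched a GENCODE symbol and GRCm38 position. After rounding, edgeR 4.0.16 under R 4.3.3 fitted all 23 libraries with a mean for each of the 4 groups, using TMM, filterByExpr defaults, quasi-likelihood tests with 19 residual degrees of freedom, and Benjamini-Hochberg adjustment over 25829 genes at 0.05. Depth was 16158408 to 34154475 expected counts, and the common biological coefficient of variation 0.563, which limits precision. All unadjusted p-values of genes are from edgeR. Intervals use the SE and 95% quantiles. The script was tested on simulated counts.

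Named genes were Nr3c2, by rank of p 12 genes in each direction (log2 difference of 1 or more, mean of 5 CPM or more in 1 of the groups), up to 4 per list, a set of transport genes, and 10 by p for the difference of diet effects; some are left undescribed. Predicted genes were not named, and 4 genes that the rule selects are not reported here. The comparison, the 37 lists and the TTTGAA and CCAAT motifs were chosen with earlier results of these data known. Promoter motifs were planned for called genes; with none called they are given for the named genes. Alternatives were DESeq2 1.42.0 and its size factors, other filters, limma 3.58.1 on log2(TPM + 1) and log2(TPM + 0.1), only the compared groups, a robust fit, length offsets, covariates for tubule segments and chemosensory genes, a replicate block, a term for replicate numbers 1 to 3 against 4 to 6, and leaving out libraries. Sample weights (voom) and a fit without the 2 knockout libraries highest in proximal tubule markers were added after the data were seen.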

Additional observations from a re-analysis of the deposited data

Results flagged for a closer look

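A library far from the other 5 of its group was found in 12 of 164 checks of a gene or a summed level (7.32%; chance gives about 1 in 20). In KO-NK the highest library of the summed podocyte markers had 365.8 CPM, of the summed thick ascending limb markers 4902 CPM and of Trpv5 367.9 CPM, and the lowest library of Hmx2 had 36.96 CPM. In KO-LK the highest library had 51.35 CPM of Cp, 82.85 of C3, 30.75 of Havcr1 and 29.95 of Aoc1. The KO-LK maxima of Atp12a (59.91 CPM), Scnn1a (202.8) and Hmx2 (150.1) also stood apart, as did the minimum of Spock3 (7.319).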

How the results depend on the processing

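The count of 0 genes for low against normal potassium became 23 with DESeq2 (which tested 21735 genes), 10 with the stricter filter of 5 CPM in 5 libraries (12421 genes tested), 1 with limma on log2(TPM + 1) and 1 on log2(TPM + 0.1), and 8 with sample weights, an alternative chosen after seeing the data. Leaving out each knockout library gave 0 to 3: 3 (Nr1d1, Ddit3 and Chic1) without KO-LK replicate 1 and 1 (Chic1) without KO-LK replicate 2. The other alternatives called 0. For the difference of diet effects the count of 0 became 17 with DESeq2, and leaving out each library gave 0 to 214. The causes were not tested. Of 75 described genes, 60 kept the sign of their log2 fold change in every setting run. For the other 15 it changed in 89 of 2097 values, none called, where the smallest adjusted p was 0.744; they include Kcnj1, Kcnj10, Kcnj16, Atp12a, Atp1b1, Fxyd4, Hsd11b2 and Aqp2. Samples with the same replicate number did not all deviate together: 4 of 6 pairs correlated above 0.1 and 2 below -0.1 (range -0.42 to 0.54; 2 of 12 libraries correlated best with their own number), and the fit with a replicate block called 0 genes in the knockout, 584 at an unadjusted p under 0.05. Havcr1, at most 1.43 CPM in 11 of the 12 knockout libraries, rests on few counts there.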
